A study of Mus musculus with 12 samples.

Results

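Goblet cells are the mucus-secreting cells of the intestinal lining, and 10 genes of their products and secretory apparatus were followed here by name in mouse stomach and colon: Muc2, Tff3, Zg16, Fcgbp, Clca1 (also called Clca3), Agr2, Spink4, Klk1, Sytl2 and Ramp1. Of these, 9 were read by 13 probe sets on the arrays, out of 11807 genes and 22626 probe sets in all, and Muc2 was not analysed here. RNA was isolated from flash frozen colon and stomach of mice aged 16 weeks that were knockout (KO), heterozygous (HET) or wild type (WT) for Spdef, which encodes a transcription factor of the ETS family with a known part in goblet cell maturation. Each of the 6 combinations of tissue and genotype had 2 Affymetrix expression arrays, 12 in all, and every sample was of the C57BL/6 strain, with no treatment. Sex, the region of the organ sampled, the way the Spdef allele was made, and whether both samples of a group were separate mice are not stated in the labels. The p-values therefore measure only the spread between these samples, which may be technical.

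A goblet cell packs mucin and accompanying proteins into granules and releases them to form the mucus that separates the epithelium from the bacteria of the gut lumen. Muc2 is the gel-forming mucin of intestinal mucus. Tff3 is a trefoil peptide secreted with it, Zg16 a lectin-like protein that binds bacteria, Fcgbp a large mucus protein with von Willebrand domains, and Clca1 a secreted protease that acts on the mucus gel. Agr2 is a disulfide isomerase of the endoplasmic reticulum (ER) needed to make mucin, Spink4 a Kazal-type protease inhibitor, and Klk1 tissue kallikrein, a serine protease that releases kinins. Sytl2 tethers secretory granules through Rab27, and Ramp1 is the membrane partner of the receptor for the neuropeptide CGRP, so these 2 genes belong to the secreting cell and not to its secretion.

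Levels are given as log2(intensity + 16), quantile normalized over the 12 arrays. Testing within a tissue took in the genes at or above a filter level of 6.53, the 40th percentile of an array, on at least 2 of its 6 arrays. Comparisons between tissues took in the genes that did so in either tissue, and Zg16 entered them through colon alone. Differences are on the same log2 scale and were tested with limma, with p-values adjusted over all genes of the comparison at a threshold of 0.05. Levels of different genes are not set against each other, since probe sets differ in brightness, and a percentile within an array describes the probe set's signal. In bulk tissue, fewer goblet cells and less RNA per goblet cell cannot be told apart. With arrays there is no count to give a depth, and precision is limited by how few there are.

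Of the 9 measured genes, 4 lie on chromosome 7, which holds 7.8% of all genes with a probe set. By the RefSeq annotation of build GRCm38.p6 these are Fcgbp (chr7:28071236-28120864), Klk1 (chr7:44225360-44229622), Sytl2 (chr7:90302211-90410719) and Zg16 (chr7:127050156-127052675). Ramp1 lies at chr1:91179822-91225196, Clca1 at chr3:145004537-145032776 and Spink4 at chr4:40920056-40931395, with Agr2 at chr12:35992925-36004081 and Tff3 at chr17:31125306-31129611. SPDEF differs from most ETS factors in preferring a GGAT core to GGAA, so the RefSeq promoters of the members were read for GGAT on either strand. Muc2, not analysed here, was left out of this search. Of the 9 measured genes, 4 had a RefSeq window at hand. All 4 are shown, among them Klk1, the member ordered by genotype in both tissues. Each gives the 250 bases before the gene's start, with every GGAT, or ATCC where it lies on the opposite strand, in capitals.
Klk1, chr7:44225110-44225359 (+ strand): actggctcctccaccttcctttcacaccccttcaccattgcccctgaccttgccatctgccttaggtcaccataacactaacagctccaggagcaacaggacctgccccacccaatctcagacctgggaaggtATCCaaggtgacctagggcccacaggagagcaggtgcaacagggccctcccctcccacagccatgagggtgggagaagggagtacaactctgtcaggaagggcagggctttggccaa
Ramp1, chr1:91179572-91179821 (+ strand): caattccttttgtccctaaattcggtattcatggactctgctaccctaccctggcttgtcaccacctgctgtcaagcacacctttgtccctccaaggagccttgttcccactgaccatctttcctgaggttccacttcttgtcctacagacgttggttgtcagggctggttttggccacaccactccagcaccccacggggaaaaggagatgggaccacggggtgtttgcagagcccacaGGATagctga
Fcgbp, chr7:28070986-28071235 (+ strand): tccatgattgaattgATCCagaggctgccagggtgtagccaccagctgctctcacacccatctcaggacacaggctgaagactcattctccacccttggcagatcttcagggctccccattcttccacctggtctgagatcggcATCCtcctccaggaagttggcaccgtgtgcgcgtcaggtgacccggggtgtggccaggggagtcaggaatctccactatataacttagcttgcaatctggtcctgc
Agr2, chr12:35992675-35992924 (+ strand): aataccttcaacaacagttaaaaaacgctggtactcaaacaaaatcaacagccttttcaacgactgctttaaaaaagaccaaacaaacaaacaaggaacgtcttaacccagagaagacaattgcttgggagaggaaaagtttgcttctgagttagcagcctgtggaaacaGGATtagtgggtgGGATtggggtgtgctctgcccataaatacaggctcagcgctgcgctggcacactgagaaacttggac
Fcgbp and Agr2 held 2 such matches each, and Klk1 and Ramp1 held 1 each. At least 1 match was present in 74.1% of the 32851 RefSeq windows of this length and at least 2 in 42.2%, so neither count is unusual among promoters. A match is a description of the letters and not a binding site.

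The labels were first set against Spdef itself and against markers of each tissue. Spdef read 9.08 and 9.25 in colon KO, 10.27 and 9.81 in colon HET, and 10.97 and 8.74 in colon WT; in stomach it lay between 8.63 and 9.19 on all 6 arrays. As the labels do not place the altered part of Spdef, and its probe set may lie outside it, a signal in KO checks nothing. The array labelled colon WT 2 stood apart. Its levels correlated with those of the other colon arrays at a mean of 0.875. Of the remaining 5 arrays, colon KO 2 was next lowest at 0.923, and the others reached 0.943 to 0.951. Its 11 measured small intestine enterocyte markers averaged 12.31 with all 11 above the filter level, against 5.94 to 7.61 with 2 to 7 above it on the other colon arrays, and its colonocyte markers averaged 9.26 against 10.64 to 11.84. Colon results are therefore given with and without colon WT 2; without it, colon WT 1 is the lone WT array and is assumed to vary like the other groups. The submitters' processing notes name RMA in place of MAS5 for both stomach KO arrays and for colon WT 1, so in stomach processing and KO genotype cannot be told apart. Nor can processing and WT genotype be told apart in colon where colon WT 2 is left out, as colon WT 1 is then the WT group.

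The first comparison set colon against stomach within each genotype. By this comparison Tff3, Zg16, Fcgbp, Clca1, Agr2, Spink4, Klk1 and Ramp1 were higher in colon and Sytl2 was lower in colon. All 9 passed the threshold in KO, in HET and in WT, where 22.9%, 22.2% and 27.3% of the 8393 genes tested passed in either direction. In the direction of colon the shares of all genes were 10.5%, 10.3% and 10.9%, against 8 of 9 members each time, and in the direction of stomach 12.4%, 12% and 16.4%, against 1 of 9. Without colon WT 2, again 8 were called higher and 1 lower in each genotype, with 31.8%, 31.1% and 26.3% of all genes passing. These genes were chosen as goblet cell products, and the colon is known for its many goblet cells. A higher colon level was therefore likely from the choice itself, and these counts describe the list and test nothing about it.

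**Figure D1:**
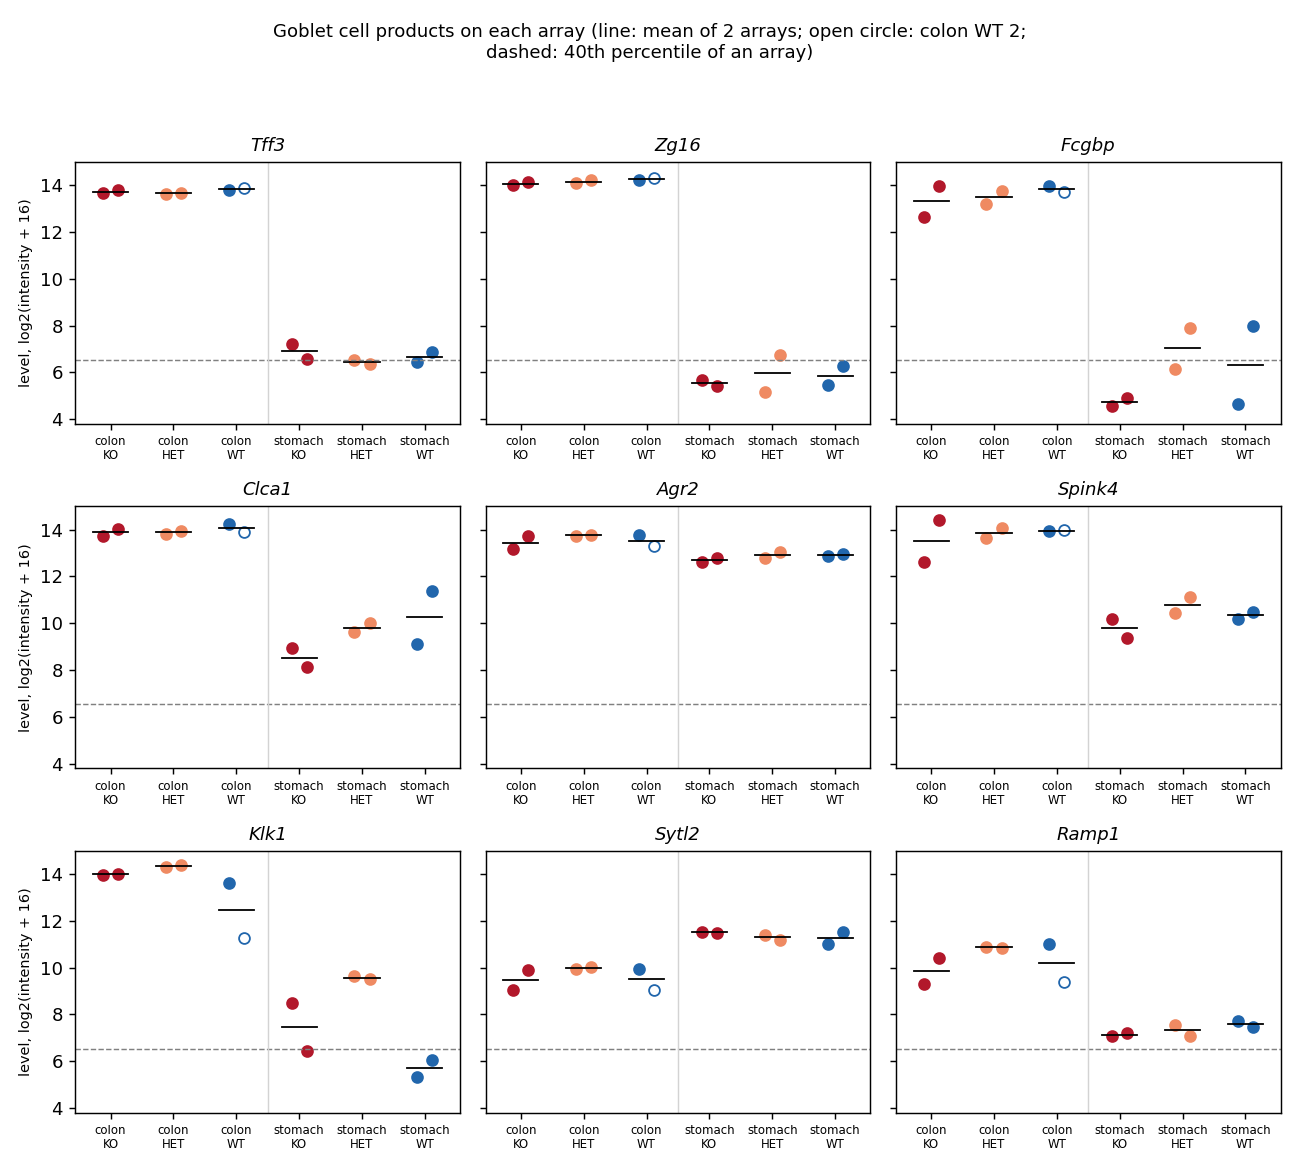
Level of each member on every array, as log2(intensity + 16), with KO, HET and WT side by side in colon and then in stomach; a black line is the mean of 2 arrays, the open circle is colon WT 2 and the dashed line is the filter level of 6.53. Colon arrays sit above stomach arrays in every panel but that of Sytl2, and the smallest such gap is that of Agr2.

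The secreted proteins of the mucus layer are given first. Tff3 read 13.66 and 13.78 in colon KO, 13.64 and 13.68 in colon HET, and 13.80 and 13.90 in colon WT. In stomach it read 7.23 and 6.58 in KO, 6.51 and 6.35 in HET, and 6.44 and 6.87 in WT. Tff3 was thus among the brightest probe sets of every colon array, at the 99.60th percentile or above, and near the filter level in stomach. In KO the colon exceeded the stomach by 6.82 (95% confidence interval 6.32 to 7.32, limma adjusted p = 7.991e-08), a 113-fold difference on this scale.

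Zg16 read 14.01 and 14.12 in colon KO, 14.11 and 14.21 in colon HET, and 14.23 and 14.30 in colon WT. In stomach it passed the filter level on 1 array only, HET 2 at 6.75, and ranged down to 5.17. Its colon level was at least 185-fold higher than its stomach level in KO, at least 198-fold in HET and at least 213-fold in WT, with limma adjusted p-values from 1.309e-06 to 1.669e-06. These are lower bounds, taken against the filter level, since the stomach means lay below it.

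Fcgbp had a wide spread in stomach. It read 4.57 and 4.91 in stomach KO, 6.15 and 7.91 in stomach HET, and 4.63 and 7.97 in stomach WT, so that arrays of 1 group lay on both sides of the filter level. In colon it read 12.66 and 13.97 in KO, 13.22 and 13.77 in HET, and 13.97 and 13.72 in WT. The colon was at least 110-fold higher in KO and at least 160-fold higher in WT, and in HET, where the stomach mean was above the filter level, it was 88.7-fold higher. In WT the fitted difference was 7.55, and it ran from 5.88 without stomach WT 1 to 9.22 without stomach WT 2.

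Clca1 was detected in stomach as well. It read 13.75 and 14.05 in colon KO, 13.80 and 13.96 in colon HET, and 14.25 and 13.91 in colon WT. In stomach it read 8.94 and 8.12 in KO, 9.63 and 9.99 in HET, and 9.12 and 11.39 in WT. Stomach WT 2 was the highest of the stomach arrays for both Clca1 and Fcgbp. The colon excess in Clca1 was 5.37 in KO, 4.07 in HET and 3.83 in WT, with overlapping 95% confidence intervals (4.05 to 6.68, 2.75 to 5.38 and 2.51 to 5.14). The WT excess was 2.70 without stomach WT 1 and 4.96 without stomach WT 2.

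Agr2 and Sytl2 were bright in stomach too. Agr2 read between 12.63 and 13.05 on the stomach arrays, at the 97.94th percentile or above, and between 13.18 and 13.78 on the colon arrays. On its brighter probe set, used here, the colon excess was 0.74 in KO (SE 0.20, limma adjusted p = 0.02584), 0.84 in HET (0.01516) and 0.62 in WT (0.04676). The call was the least stable of the members: over 20 other settings the KO, HET and WT calls were lost in 4, 4 and 13, with adjusted p-values up to 0.198. Leaving out colon WT 1 put the WT difference at 0.38, and leaving out colon WT 2 put it at 0.86. The dimmer probe set of Agr2 read 11.30 and 10.65 in stomach KO, 11.75 and 11.50 in stomach HET, and 11.35 and 11.44 in stomach WT. In colon it read 12.24 and 12.84 in KO, 12.64 and 12.76 in HET, and 13.08 and 11.97 in WT. Its gap between the tissue means was wider in each genotype.

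Sytl2 ran the other way. It read 9.05 and 9.92 in colon KO, 9.93 and 10.02 in colon HET, and 9.95 and 9.05 in colon WT, against 11.54 and 11.47 in stomach KO, 11.40 and 11.19 in stomach HET, and 11.03 and 11.54 in stomach WT. No colon array reached a stomach array. The colon was lower by differences of -2.02 in KO, -1.32 in HET and -1.79 in WT, with limma adjusted p-values of 0.002683, 0.02199 and 0.004484. Leaving out colon WT 2 put the WT difference at -1.34, and leaving out colon WT 1 put it at -2.24. The HET call was lost in 5 of 20 other settings, among them those without any 1 of the 4 HET arrays (adjusted p from 0.0789 to 0.114).

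The protease inhibitor, the kallikrein and the CGRP receptor partner were also higher in colon. Spink4 read 12.61 and 14.42 in colon KO, 13.65 and 14.07 in colon HET, and 13.96 and 13.97 in colon WT, and between 9.39 and 11.13 in stomach. Its colon excess was 3.73 in KO, 3.07 in HET and 3.62 in WT. Klk1, described in full below, exceeded the stomach by 6.55 in KO, 4.78 in HET and at least 5.93 (60.8-fold) in WT. The WT bound was 7.11 (138-fold) without colon WT 2. Ramp1 read 9.30 and 10.43 in colon KO, 10.90 and 10.83 in colon HET, and 10.99 and 9.39 in colon WT, against 7.07 to 7.71 in stomach, and its colon excess was 2.72 in KO, 3.55 in HET and 2.61 in WT. In WT this became 3.41 when colon WT 2 was left out and 1.81 when colon WT 1 was.

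**Figure D2:**
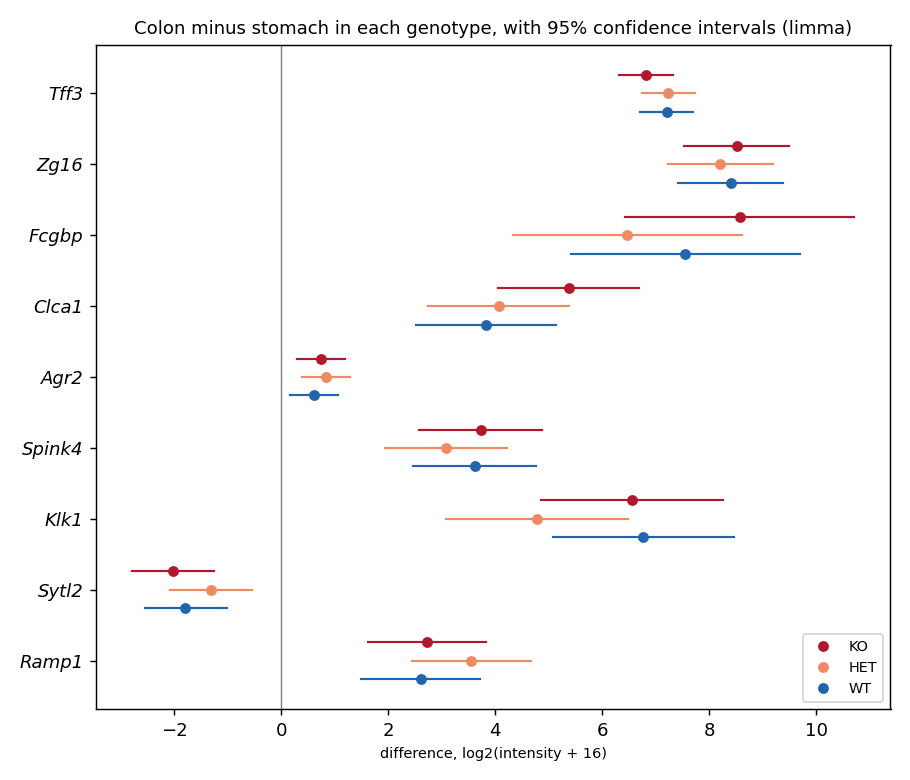
Colon minus stomach difference of each member in KO, HET and WT, on the log2(intensity + 16) scale, with 95% confidence intervals from limma. All intervals exclude 0, those of Sytl2 lie below it, and those of the 3 genotypes overlap within every gene. For Zg16, for Fcgbp and Klk1 where the stomach mean was below 6.53, and for Tff3 in HET the plotted fit is no bound.

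Relatives of the members from the same gene families did not share 1 direction. Of 26 relatives with a probe set, 15 were tested between tissues, and in KO 5 were higher and 6 lower in colon, where 10.5% and 12.4% of all genes were, with a median difference of -0.52 against -0.04 over all genes. The members' median in KO was 5.37, and it was the same with Zg16 and Fcgbp at their bounds. Muc5ac, the gel-forming mucin of the gastric surface, read 4.13 and 4.44 in colon KO against 13.88 and 13.85 in stomach KO, at least 161-fold lower in colon. The gastric trefoil peptides Tff1 and Tff2 were also lower in colon KO, Tff1 with a difference of -7.54 (limma adjusted p = 7.991e-08) and Tff2 at least 149-fold (limma adjusted p = 5.32e-06). Tff3 had gone the other way. Sytl4, a second granule tether, was lower in colon like Sytl2, at -1.51 in KO (adjusted p = 0.007143), and Rab27b, to which such tethers bind, was at -1.22 (adjusted p = 0.0409). Spink1 and Klk1b9 were higher in colon KO like their relatives Spink4 and Klk1, at least 19-fold and at least 43.7-fold. In HET and WT Rab27b did not pass, and the other relatives named here did.

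The second comparison asked whether the members changed with loss of Spdef. In colon none of the 9 passed between KO and WT, where 0.0505% of 7913 genes passed in limma, and none had an unadjusted p under 0.05, against 11.2% of all genes. The median difference of the members was -0.18, against 0.06 over all genes tested, and 8 of the 9 were below 0, as were 42.6% of all genes. Klk1 was the exception. Without colon KO 1 the differences of Fcgbp, Agr2, Spink4, Sytl2 and Ramp1 turned positive, as given below. Without colon WT 2 again none passed, against 0.307% of 7825 genes, 1 had an unadjusted p under 0.05 (12.4% of all genes), and the median was -0.35 against 0.02.

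**Figure D3:**
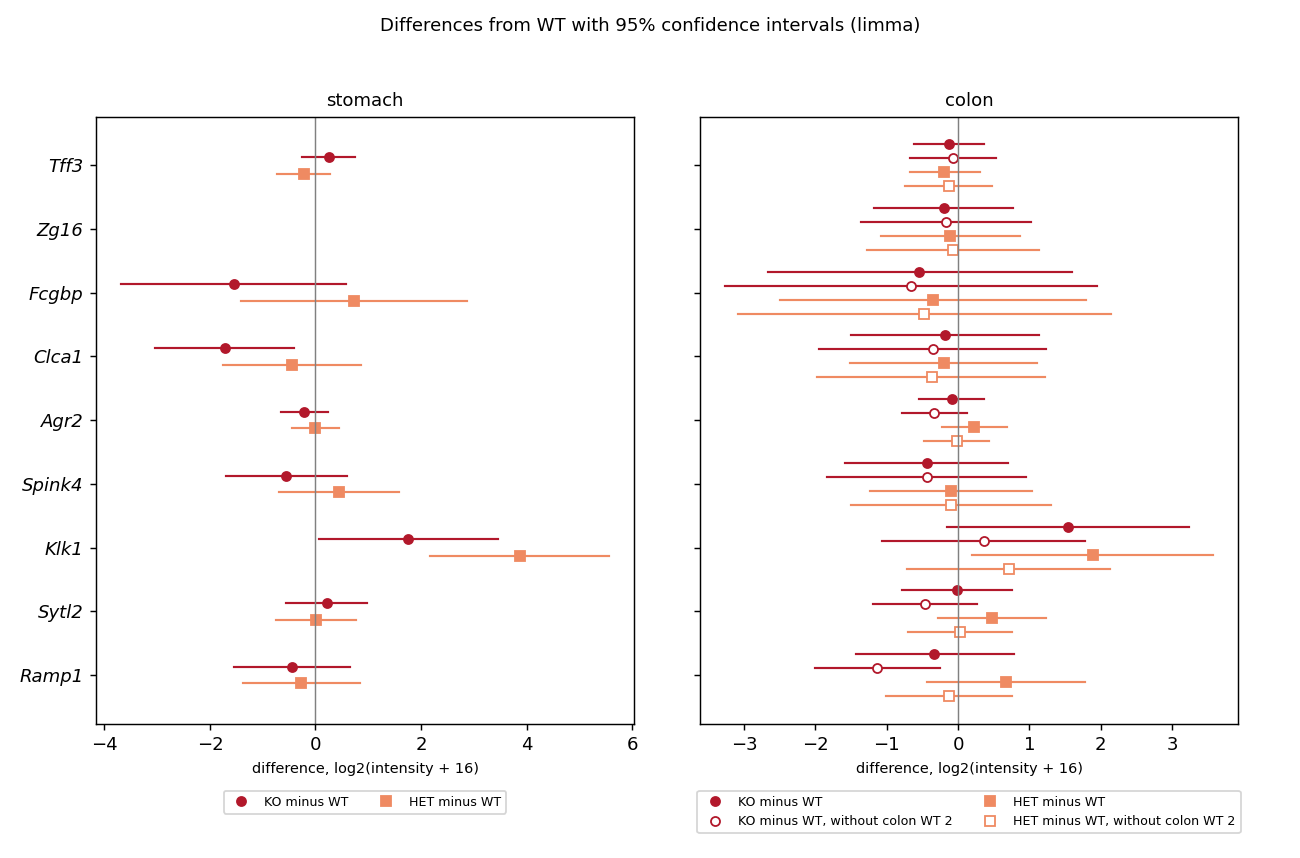
KO minus WT (circles) and HET minus WT (squares) differences of each member in stomach and colon, on the log2(intensity + 16) scale, with 95% confidence intervals from limma; open symbols leave out colon WT 2. Zg16 was below the filter in stomach and has no test there, and for Fcgbp, whose KO mean and WT mean in stomach were both below 6.53, the plotted stomach KO fit is no measured difference. Most intervals include 0, and those of Klk1 lie furthest to the right.

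Tff3 and Agr2 had the narrowest intervals between colon KO and WT. Tff3 averaged 13.72 ± 0.08 in colon KO and 13.85 ± 0.08 in colon WT (SD, n = 2 each), a difference of -0.13 with a 95% confidence interval of -0.62 to 0.37, that is a fold of 0.649 to 1.29. Agr2 averaged 13.45 ± 0.38 in colon KO and 13.53 ± 0.34 in colon WT, a difference of -0.09 (-0.54 to 0.36). Zg16 was at -0.20 (-1.18 to 0.77) and Clca1 at -0.18 (-1.50 to 1.13). Fcgbp was at -0.54 (-2.67 to 1.60) and Spink4 at -0.44 (-1.59 to 0.70), intervals that reach down to a fold of 0.157 and 0.332. A p that misses the threshold does not show that KO and WT were alike.

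For Tff3 and Zg16 both colon KO arrays and both colon HET arrays lay below both WT arrays, colon WT 2 included. The other probe set of Zg16 did not show this: it read 13.06 and 13.90 in colon KO, 13.73 and 13.82 in colon HET, and 13.73 and 14.12 in colon WT, so the groups overlapped. The gap was narrow on the normalized scale, where these genes sit at the top of the range: the highest level on any array was 14.42, and 1.37% of probe sets were at 13 or above. On the deposited intensities it was wider. Tff3 read 11570 and 12340 in colon KO, 12020 and 10250 in colon HET, and 18110 and 15640 in colon WT. Zg16 read 13570 and 14850 in colon KO, 16080 and 14070 in colon HET, and 26530 and 19940 in colon WT. The higher WT value of either gene is that of colon WT 1, the 1 colon array for which RMA is named. Without normalization between arrays the KO minus WT difference was -0.49 for Tff3 and -0.70 for Zg16, neither of which passed in limma, and the median over the 9 members was -0.49 against 0.07 over all genes. Of all genes tested in colon, 10.6% had both KO arrays below both WT arrays and 15% had both HET arrays below both WT arrays.

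Sytl2 and Ramp1, the genes of the secreting cell, depended on the WT array used. Sytl2 was at -0.01 between colon KO and WT (95% confidence interval -0.78 to 0.75) and at -0.46 without colon WT 2. Ramp1 was at -0.33 (-1.43 to 0.78) over all arrays. Without colon WT 2 it was at -1.13 (-2.01 to -0.25, limma adjusted p = 0.3065), and without colon WT 1 it turned to 0.48. The 2 WT arrays read 10.99 and 9.39 for this gene, and the sign of its KO minus WT value depends on which of them is used.

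HET colon was set against WT and KO in the same way. None of the 9 members passed against WT, where 0.0253% of all genes did, 1 member had an unadjusted p under 0.05 (Klk1, against 9.62% of all genes), and the median was -0.10 against 0.04. Agr2 was at 0.23, Sytl2 at 0.48 and Ramp1 at 0.67 against WT, and without colon WT 2 they were at -0.01, 0.03 and -0.13. Without colon WT 2 again none of the 9 passed, against 0.0767% of all genes, and none had an unadjusted p under 0.05, against 9.18%. None passed between KO and HET, where 0.0253% did, and none had an unadjusted p under 0.05 (4.11% of all genes). Below 0 were 7 of the 9 and 46.6% of all genes, with a median of -0.31 against 0.02. Without colon WT 2 none passed either (0.102% of all genes did), and Ramp1 alone had an unadjusted p under 0.05 (7.41% of all genes). The widest gap was that of Ramp1, at -1.0 (95% confidence interval -2.11 to 0.10), with both KO arrays below both HET arrays, as for 15.1% of all genes. These 3 comparisons share their arrays in pairs and are not independent of each other.

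In stomach 8 members were tested, and none passed between KO and WT, where 0.0127% of 7858 genes passed. An unadjusted p under 0.05 was found for 2, and for 3.56% of all genes. Clca1 differed by -1.72 (95% confidence interval -3.04 to -0.41, limma adjusted p = 0.9995), and both KO arrays lay below both WT arrays, as for 16.7% of all genes. The size rested on stomach WT 2: the difference was -0.59 without that array and -2.85 without WT 1. Its other probe set read 5.49 and 4.99 in stomach KO and 4.75 and 6.15 in stomach WT, all below the filter level. Klk1, the other gene, is given below.

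The remaining stomach values were small or rested on dim arrays. For Fcgbp the KO mean and the WT mean were both below the filter level, so no difference is given: the arrays read 4.57 and 4.91 in KO, and 4.63 and 7.97 in WT, so WT 1 lay between the KO arrays. Tff3 (0.25), Agr2 (-0.21), Spink4 (-0.55), Sytl2 (0.22) and Ramp1 (-0.44) had intervals that included 0. The median over the members was -0.33 against 0.01 over all genes. Between KO and HET none passed (0.0127% of all genes did) and 2 had an unadjusted p under 0.05 (1.86% of all genes). On group means Fcgbp was at least 1.41-fold lower in KO, whose mean was below the filter level. That bound rests on HET 2 at 7.91, since HET 1 at 6.15 was below the filter level too. Klk1 was at -2.12. Between HET and WT none passed, 1 had an unadjusted p under 0.05 (Klk1, against 2.2% of all genes), and the median was 0 against -0.01. Markers of the squamous forestomach were lowest in KO, averaging 5.58 and 5.80 in stomach KO, 9.85 and 6.89 in stomach HET, and 7.96 and 8.72 in stomach WT, with 1, 1, 9, 4, 6 and 8 of 9 above the filter level in the same order. Their part in these differences was not tested.

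Whether the KO effect differed between the tissues was tested as an interaction. None of the 9 members passed, where 0.0238% of 8393 genes did, and none had an unadjusted p under 0.05 (4.63% of all genes). The differences of differences ran from -0.38 to 1.54. For Zg16 (0.11) and Fcgbp (1.02) the stomach KO and WT means were both below the filter level, so these values are no measured difference. Again none passed without colon WT 2, where 0.108% of 8346 genes did, and none had an unadjusted p under 0.05 (6.79%). The values then ran from -1.40 to 1.37. The lowest was that of Klk1, at -1.40 (95% confidence interval -3.23 to 0.44), against -0.21 with all arrays.

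Klk1 was ordered by genotype in both tissues, although it did not pass over all genes. In colon it read 13.97 and 14.02 in KO, 14.32 and 14.37 in HET, and 13.64 and 11.28 in WT. In stomach it read 8.47 and 6.43 in KO, 9.63 and 9.50 in HET, and 5.32 and 6.07 in WT. The WT arrays were thus below every HET and KO array in both tissues, and the HET arrays were the highest in both. Of the 7378 genes tested in both tissues, 1.53% had their WT arrays below in this way, and Klk1 was the 1 member to do so.

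The HET minus WT difference of Klk1 in stomach was 3.87 (SE 0.75, 95% confidence interval 2.17 to 5.57). With the WT mean below the filter level, this is at least an 8.20-fold difference. Its limma p was 0.000555 and its adjusted p 1, in a comparison where no gene passed (0% of 7858) and 173 had an unadjusted p under 0.05. Both HET arrays lay above both WT arrays for 17% of all genes. Over 22 alternatives, chosen for this value after the data were seen, it lay between 3.0 and 4.37, and its adjusted p between 0.09506 and 1. In stomach KO the difference from WT was 1.75 (0.06 to 3.45, limma adjusted p = 0.9995), or at least 1.89-fold, with KO arrays above WT arrays as for 20.5% of all genes. It was 0.73 without KO 1 and 2.77 without KO 2.

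In colon the Klk1 difference was 1.54 in KO (95% confidence interval -0.16 to 3.24, limma adjusted p = 0.4603) and 1.89 in HET (0.19 to 3.58, limma adjusted p = 0.5113), both against WT. The KO arrays lay above the WT arrays for 20.4% of all genes in colon and the HET arrays for 22.3%. Both differences rested on the array labelled colon WT 2. Without it they were 0.36 (-1.07 to 1.78) and 0.71 (-0.72 to 2.13). Without colon WT 1 they were 2.72 and 3.07, against colon WT 2 alone, the array with the small intestine markers. The dimmer probe set of Klk1 gave the same order: 13.96 and 13.95 in colon KO, 14.27 and 14.25 in colon HET, and 13.57 and 11.23 in colon WT, with 8.60 and 6.72 in stomach KO, 9.59 and 9.07 in stomach HET, and 5.17 and 5.11 in stomach WT.

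**Figure D4:**
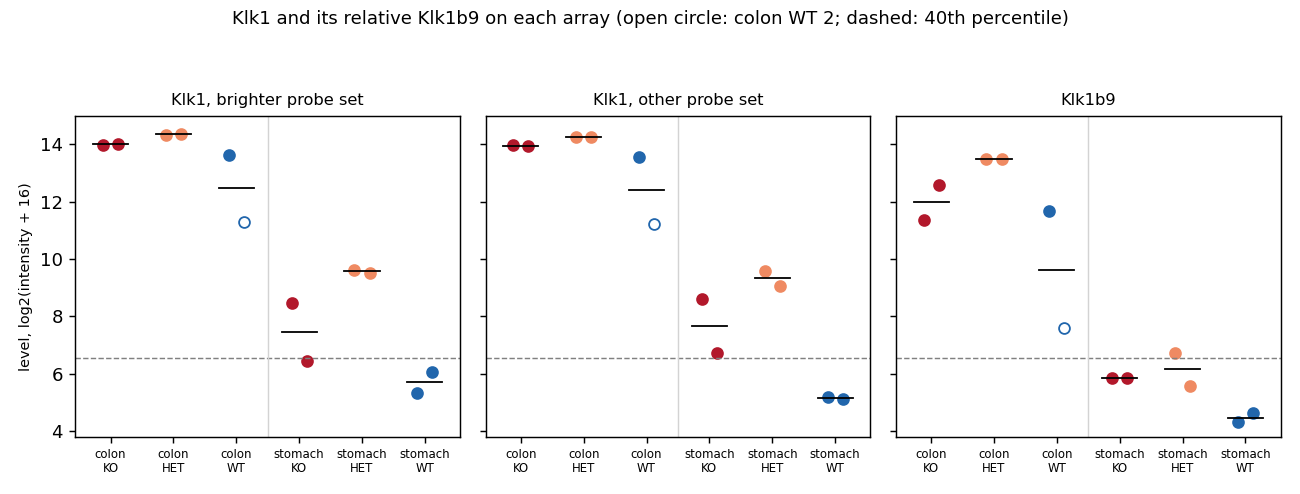
Levels of both Klk1 probe sets and of Klk1b9 on every array, as log2(intensity + 16), with KO, HET and WT side by side in colon and then in stomach; a black line is the mean of 2 arrays, the open circle is colon WT 2 and the dashed line is the filter level of 6.53. WT arrays are the lowest for both Klk1 probe sets in either tissue, and colon WT 2 at 11.28, 11.23 and 7.59 is far below colon WT 1.

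Klk1b9, a close relative of Klk1 in the mouse kallikrein cluster, had the same order of group means in colon. It read 11.37 and 12.59 in colon KO, 13.47 and 13.48 in colon HET, and 11.66 and 7.59 in colon WT. Its HET minus WT difference in colon was 3.86 (SE 1.03, limma adjusted p = 0.4188), and 1.82 without colon WT 2. KO minus WT was 2.36, and 0.32 without colon WT 2, whose value is far below that of colon WT 1. The 2 genes are similar in sequence and their probe sets may read each other, so they are not independent. The other 8 kallikreins of the cluster that were measured (Klk1b1, Klk1b5, Klk1b11, Klk1b16, Klk1b21, Klk1b24, Klk1b26 and Klk1b27) were never above 6.26 on any array.

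Klk1 starts at position 44225360 of chromosome 7 (GRCm38.p6). Within 10 Mb of it, 11 of 68 genes tested in both tissues had WT arrays apart from all HET and KO arrays on the same side in both, or 16.2%. The share was 4.30% over the 535 such genes of chromosome 7, 2.21% over the 6837 on other chromosomes and 2.36% over all. Of the 11, 7 had WT below and 4 had WT above, and the others besides Klk1 were Uri1, Pop4, Nup62, Nosip, Rcn3, Rpl13a, Aldh16a1, Snrnp70, Uevld and Fancf. Neighbouring genes are not independent, and the window was set around a gene whose pattern had been seen. Zg16, Fcgbp and Sytl2, the other measured members on chromosome 7, did not show it.

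The spread between arrays of 1 group was itself patterned. All 9 members were lower in colon KO 1 than in colon KO 2, by a median of -0.54, while 49.2% of all genes tested in colon were lower and their median was 0.01. The gaps ran from -0.05 for Klk1 to -1.30 for Fcgbp and -1.81 for Spink4. Between colon HET 1 and HET 2, 8 of 9 were lower in HET 1, with a median of only -0.09. Colon WT 2 was below colon WT 1 in 6 of 9 members (55.0% of all genes), most for Klk1 (-2.36), Ramp1 (-1.60) and Sytl2 (-0.90), while Tff3, Zg16 and Spink4 were 0.01 to 0.11 higher in colon WT 2.

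The mean level of the 9 members was 12.47 and 13.16 in colon KO, 13.04 and 13.19 in colon HET, and 13.17 and 12.53 in colon WT, so 1 array each of KO and WT was low. Colonocyte markers averaged 10.64 and 11.84 in colon KO, 10.76 and 11.54 in colon HET, and 10.90 and 9.26 in colon WT. This average was likewise lower on KO 1, HET 1 and WT 2, but not every marker followed it. In colon KO, Hoxb13 read 4.31 and 10.81 and Aqp8 read 8.82 and 12.19. Car1 (13.82 and 13.50), Car4 (12.91 and 12.70), Guca2a (14.10 and 13.93), Guca2b (11.17 and 10.85) and Krt20 (12.92 and 12.91) went the other way there. General epithelial markers lay between 12.99 and 13.30 on all 6. The X-inactivation transcript Xist, looked at after values were seen, read 12.86 and 5.70 in colon KO and 12.77 and 7.48 in stomach KO, and 12.34 or more on the other 8 arrays, so the second KO array of either tissue differed from the rest. The part of these features in the members' differences was not tested. Without colon KO 1, the colon KO minus WT differences of Fcgbp, Agr2, Spink4, Sytl2 and Ramp1 turned positive (0.12, 0.19, 0.46, 0.42 and 0.24). Colon KO 2, with the low Xist, was then the lone KO array. Its small intestine enterocyte markers averaged 5.94 and its adipocyte markers 7.37, each the lowest of the colon arrays. Adipocyte markers averaged 9.50 to 10.42 on the others. The part of these values in the change of sign was not tested.

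Other genes of the goblet cell programme, listed with earlier results of these data known, were set beside the members. Of 24 listed, 21 had a probe set and all 21 were tested in colon. Creb3l4, an ER-bound transcription factor, read 6.09 and 6.16 in colon KO, 9.30 and 9.02 in colon HET, and 9.12 and 8.11 in colon WT. It was the only gene of the list past the threshold between KO and WT, in colon (at least 4.24-fold lower in KO, limma adjusted p = 0.04635) and among the 13 tested in stomach (at least 4.29-fold lower, adjusted p = 0.02841). The list's median was 0.17 in colon, against 0.06 over all genes, and -0.30 without colon WT 2, where Spdef itself also passed, at -1.80 against -0.69 with all arrays; the WT array in that value is colon WT 1 alone, for which RMA is named. Retnlb, a resistin-like goblet cell protein, showed how far single arrays reach: it read 10.40 and 14.21 in colon KO, 13.71 and 14.06 in colon HET, and 14.42 and 6.62 in colon WT. Best2, a chloride and bicarbonate channel of colonic goblet cells, read 7.45 and 8.70 in colon KO against 6.25 and 6.69 in colon WT. It was at least 2.92-fold higher in KO and did not pass (limma adjusted p = 0.318). The colon HET arrays, at 7.86 and 8.49, lay between the KO arrays and above both WT arrays.

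The machinery that builds and folds mucins was followed through a pair of further lists. Of 23 tested genes of mucin-type O-glycan synthesis, none passed between colon KO and WT and 4 had an unadjusted p under 0.05 (11.2% of all genes did), with a median of -0.07. The sialyltransferase gene St6galnac6 was the furthest from 0, at 2.40 (limma adjusted p = 0.4586), and was at 0.01 without colon WT 2. Another sialyltransferase, St6galnac1, read 6.02 and 5.72 in colon KO, 8.25 and 7.64 in colon HET, and 7.33 and 8.53 in colon WT, at least 2.63-fold lower in KO than in WT (limma adjusted p = 0.3153), and at least 1.73-fold lower without colon WT 2. A further one, St3gal4, was at -1.67 (adjusted p = 0.3748). Without colon WT 2 the list's median was -0.44, and Gfpt1, which opens the hexosamine pathway, was its 1 gene past the threshold. Of 26 tested genes of ER folding and export none passed and 2 had an unadjusted p under 0.05, a share below the 11.2% of all genes, with a median of -0.01; Sel1l, of ER-associated degradation, was the furthest from 0 at -0.83 (adjusted p = 0.318). In stomach none of 19 O-glycan genes and none of 25 ER genes passed between KO and WT, with 1 and 0 at an unadjusted p under 0.05 (3.56% of all genes) and medians of 0.01 and 0.08. Of the relatives, none of 14 passed in colon and none of 10 in stomach, with 4 and 0 at an unadjusted p under 0.05 (11.2% and 3.56% of all genes). Between tissues in KO, 8 of 23 O-glycan genes were higher and 1 lower in colon, and 2 of 26 ER genes were higher and 6 lower, where 10.5% of all genes were higher and 12.4% lower.

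The genes whose profiles were most like the mean profile of the members were sought among 8384 others. Over the 12 arrays they were Ceacam2 (Pearson r = 0.994), Selenom (0.992), Ceacam1 (0.992), Lgals3 (0.990) and Muc13 (0.989), all with higher levels on every colon array than on any stomach array. With the mean of each tissue taken off they were Rest (0.902), Lime1 (0.864), Tle1 (0.862), Ror2 (0.847) and Ceacam2 (0.839). The first set of values follows the tissue difference, the second rests on 12 arrays with small deviations, and neither carries a test. The members are themselves part of the mean profile, so their correlations with it are not independent of it. Within tissues these ran from -0.076 for Tff3 to 0.821 for Fcgbp. Members with a wide spread weigh most in the mean, and Fcgbp ranged from 4.57 to 7.97 in stomach.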

How the data were processed

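Affymetrix arrays of stomach and colon from Spdef KO, HET and WT mice were used, 2 per group. The authors deposited 1 linear intensity per probe set and array, from 0.163 to 32077, each array with a trimmed mean of 500.1. Per the submitters' processing notes, 9 arrays were processed with MAS5, and RMA is named for the other 3 (both of stomach KO, and colon WT 1), with versions not given in the sources used here.

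Of 22716 probe sets, 90 controls were left out. Genes were named from the platform annotation, updated through gene identifiers against RefSeq (17977 probe sets updated, 26 kept): 18003 probe sets had 1 gene, 287 several and 4336 none. A gene was read by its probe set with the highest mean. Levels are log2(intensity + 16), quantile normalized, so differences of dim genes are understated. Genes at or above the 40th percentile (an intensity of 76.5) in 2 of the 6 arrays of a tissue were tested with limma 3.58.1 in R 4.3.3, with 1 mean per group over all 12 arrays, with an intensity trend, 6 residual and 3.29 prior degrees of freedom, and Benjamini-Hochberg adjustment. Where 1 group mean lay below the filter level, the bound "at least" is taken against that level. Confidence intervals are not adjusted for many tests. The code was tested on simulated data. Figures used Python 3.11.15 and matplotlib 3.10.9.

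The members and lists were chosen with earlier results of these data known. Named genes are the members, Spdef, list genes past the threshold or among the 3 furthest from 0 between KO and WT, and the 5 genes most like the members. Others were named after their values were seen. These are the relatives named in the tissue comparison and for Klk1, the chromosome 7 genes, Xist, the Y-linked genes and single colonocyte markers. Alternatives covered normalization, offset, filter, trend, tissues fitted alone, probe sets, the replicate number as a block and each array left out.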

Additional observations from a re-analysis of the deposited data

How the results depend on the processing

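With 2 arrays per group, calls between genotypes rest on single arrays, and the bright members have little room above them on the arrays. The count of members past the threshold was 0 between genotypes in every alternative, except that leaving out arrays in turn gave 0 to 1 for colon KO against WT and 0 to 2 for colon HET against WT. The 1 and the 2 came without colon WT 1, where colon WT 2, with its small intestine markers, was the lone WT array. Many more of all genes passed there than with all arrays, so these counts are no result about the members. The members in question were Klk1 in both (2.72 and 3.07) and Ramp1 in HET (1.48). Counts between tissues were 8 to 9 in KO, 7 to 9 in HET and 8 to 9 in WT when arrays were left out in turn, and 8 in each without normalization between arrays; the genes that lost their call were Agr2 and, in HET, Sytl2.

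Signs of uncalled differences turned as follows. The other probe set gave 0.30, 0.57 and -0.27 for Clca1 in colon KO minus WT, HET minus WT and KO minus HET, and 0.01 for Agr2 in colon KO minus WT. Without normalization between arrays, Sytl2 was at 0.06 in colon KO minus WT and Agr2 at -0.22 in colon HET minus WT. With arrays left out in turn, stomach KO minus WT ran from -0.07 to 0.57 for Tff3 and from -0.04 to 0.47 for Sytl2. Colon KO minus WT ran from -1.19 to 0.12 for Fcgbp, from -0.36 to 0.19 for Agr2, from -1.35 to 0.46 for Spink4, from -0.46 to 0.44 for Sytl2 and from -1.13 to 0.48 for Ramp1. Colon HET minus WT ran from -0.01 to 0.47 for Agr2, from -0.31 to 0.11 for Spink4 and from -0.13 to 1.48 for Ramp1. Colon KO minus HET ran from -0.84 to 0.47 for Fcgbp, from -0.13 to 0.17 for Clca1 and from -1.25 to 0.56 for Spink4. The cause was not tested.

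Within a tissue, same-numbered arrays of different genotypes correlated between -0.37 and 0.31 in their deviations from the group means. With so few arrays per group, these values cannot show whether such arrays share more than a number. No correlation was computed between same-numbered arrays of stomach and colon. Xist was low in KO arrays of the same number (7.48 in stomach, 5.7 in colon). Whether same-numbered arrays of stomach and colon came from the same mouse was not tested, and the main tissue comparisons treat them as independent. With the replicate number as a block, 0 members passed in each genotype comparison and 9, 8 and 8 between tissues in KO, HET and WT; over all genes the block gave 3 calls for colon KO against WT and 2066 between tissues in WT.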
